A study of Mus musculus with 207 samples.

Results

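The cultures described here are 90 of the 207 bone marrow macrophage cultures of the series, taken from the ends of a score of cholesterol efflux genes: 45 cultures with high and 45 with low signals of Abca1, Abcg1 and Mylip. Each culture came from its own mouse and was read on 1 Affymetrix 430v2 array. All mice were apoE-deficient F2 animals of an AKRxDBA/2 intercross, 16 weeks of age, and no group received an agent, so that every group carries the deficiency of apoE and a random mix of AKR and DBA/2 alleles. The cells were grown from marrow in medium with serum and L-cell conditioned medium, a source of macrophage colony stimulating factor. The score of an array was the mean, over the 3 genes, of the z value of log2(signal + 1) of each gene's brightest probe set, and its residual on the rank of the code number in the sample title was used. Among the 93 females the 23 highest and 23 lowest residuals were taken, and among 90 of the males the 22 highest and 22 lowest, about 25% of the arrays of a sex at each end; 24 males with code numbers 55 to 78 were left out. These are the high and the low group of each sex below. What the code number stands for is not stated.

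ABCA1 and ABCG1 are membrane transporters that hand cellular cholesterol to apolipoprotein A-I and to high density lipoprotein. MYLIP, also called IDOL, is a ubiquitin ligase that removes lipoprotein receptors from the cell surface. The genes of all 3 are targets of the liver X receptors (LXR), which are switched on by oxysterols when a macrophage holds much cholesterol. The opposite arm runs through SREBP2 (Srebf2), a membrane-bound factor that is held back by sterols and released when they are scarce, and that then drives the genes of sterol synthesis. LXR also acts on Srebf1, whose product drives fatty acid synthesis. The comparison of the groups asks how sterol synthesis and other genes stood where the efflux genes were high.

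Short promoter windows show the kinds of letters by which these pathways are read. RefSeq promoters of GRCm38.p6, from 250 bases before to 50 after the start of a gene, were searched on both strands for 3 motifs. The LXR-type repeat was spelled as GGTNA, 5 bases of any kind and GGTNA again, and was found in 0.718% of 32851 promoters. The SREBP-type site TCACNCCAC was found in 1.24%, and the antioxidant site TGACNNNGC, which is read by NRF2, in 12.4%. The motifs do not overlap in the windows printed, where capitals mark the match, and the window is read along the strand of the gene.
Abca1: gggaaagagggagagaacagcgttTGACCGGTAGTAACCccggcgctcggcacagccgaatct
Fasn: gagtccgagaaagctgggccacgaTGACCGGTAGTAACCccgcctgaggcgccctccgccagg
Hmgcs1: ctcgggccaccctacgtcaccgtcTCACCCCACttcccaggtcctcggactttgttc
Gclm: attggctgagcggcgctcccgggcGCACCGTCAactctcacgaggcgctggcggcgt
The Abca1 window is chr4:53159924-53159986 on the minus strand, with the match from 67 to 53 bases before the start. The Fasn window, chr11:120824734-120824796 on the minus strand, holds the same 15 letters from 225 to 211 bases before the start. The Hmgcs1 window is chr13:119690190-119690246 on the plus strand, and the Gclm window is chr3:122245399-122245455 on the plus strand. Abca1 is shown as a gene of the score, Fasn and Hmgcs1 as genes of the fatty acid and sterol arms, and Gclm because it was higher in the high group of both sexes and had a match. Srxn1, also higher in both, was searched for the antioxidant site and had no match before the start. Of the promoters found for the lists, the LXR-type repeat was in 1 of 2 for the score genes, 0 of 18 for sterol synthesis, 1 of 11 for other LXR targets and 1 of 13 for fatty acid synthesis, and the SREBP-type site was in 1 of 18 for sterol synthesis. The antioxidant site was in 4 of 18 for sterol synthesis, 2 of 13 for fatty acid synthesis, 0 of 11 for other LXR targets and 0 of 2 for the score genes. A match is a match of letters, and a promoter without one says nothing of the factor.

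The labelled sex and cell type were read first. Xist was above every male in 93 of 93 females, and the Y-linked Eif2s3y, Kdm5d and Uty were above every female in all males. Of the macrophage markers some were high on every array of the 183 scored and others varied widely. The signal of Csf1r, the receptor for macrophage colony stimulating factor, ran from 19327 to 44386 and that of Adgre1 (F4/80) from 12878 to 39045, while Mrc1 ran from 240.0 to 16840.0, C1qb from 621.5 to 25599, Fcgr1 from 629 to 9776 and Aif1 from 718 to 18711. The summed signal of 14 macrophage markers had a median of 237415 in the female high and 218392 in the female low group, and of 233815 and 228199 in males. The summed signal of the neutrophil markers above the signal minimum, 3 of 9, had medians of 5874 and 8349 in females and 2773 and 6612 in males, with ranges that overlapped. The fitted differences of these 3 were all positive in females, with a median of 0.60, and 1 of 3 was in males, with a median of -0.20; none passed after adjustment, and 2 in females and 1 in males had an unadjusted p under 0.05. That of the stromal and fibroblast markers, 11 of 13, ran from 1575 to 43051 in the female high group and from 2066 to 142104 in the low group, and in males from 4247 to 51264 and from 2527 to 66007. The osteoclast markers above the minimum, 5 of 8, had a median fitted difference of -0.11 in females and 0.46 in males. None of these passed after adjustment, and 1 in females and 3 in males had an unadjusted p under 0.05. Within 7 blocks of the code number the medians were 0.20 and 0.11. There 1 was called higher in males, where 5% of genes were, and 0 in females. None of 5 T and NK cell markers and none of 6 mast cell markers reached the minimum. The median signal of an array had a median of 61.7 in the female high and 65.1 in the female low group, and of 62.3 and 65.3 in males. The part of these differences in the results was not tested. In bulk cultures, fewer cells of a type and less RNA per cell cannot be told apart.

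High and low cultures lay in runs of the code number. The residual score of an array correlated with that of the next array in code order with a Pearson correlation of 0.649 over 93 females and 0.645 over 90 males, as a description. A run of 16 females from number 91 held 12 of the high group, and a run of 14 females from number 110 held 11 of the low group. All 3 females numbered 33 to 35 were low, and so were all 6 males numbered 79 to 84, with residuals from -2.49 to -1.52. Males 39 to 54 held 10 high and 0 low arrays among 16. Neighbouring arrays are therefore not independent samples of the score, while the p-values treat them as such. Counts and values from within short blocks of the code number are given beside many of those below for that reason. Within blocks the 3 highest and 3 lowest arrays of each were compared, so the contrast in score was smaller. The mean residuals were 0.77 and -0.85 in the female groups and 0.58 and -0.67 within 7 blocks. In males they were 0.80 and -1.10, and 0.72 and -0.81. Within blocks of 12 they were 0.60 and -0.62 in females and 0.75 and -0.88 in males.

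**Figure D1:**
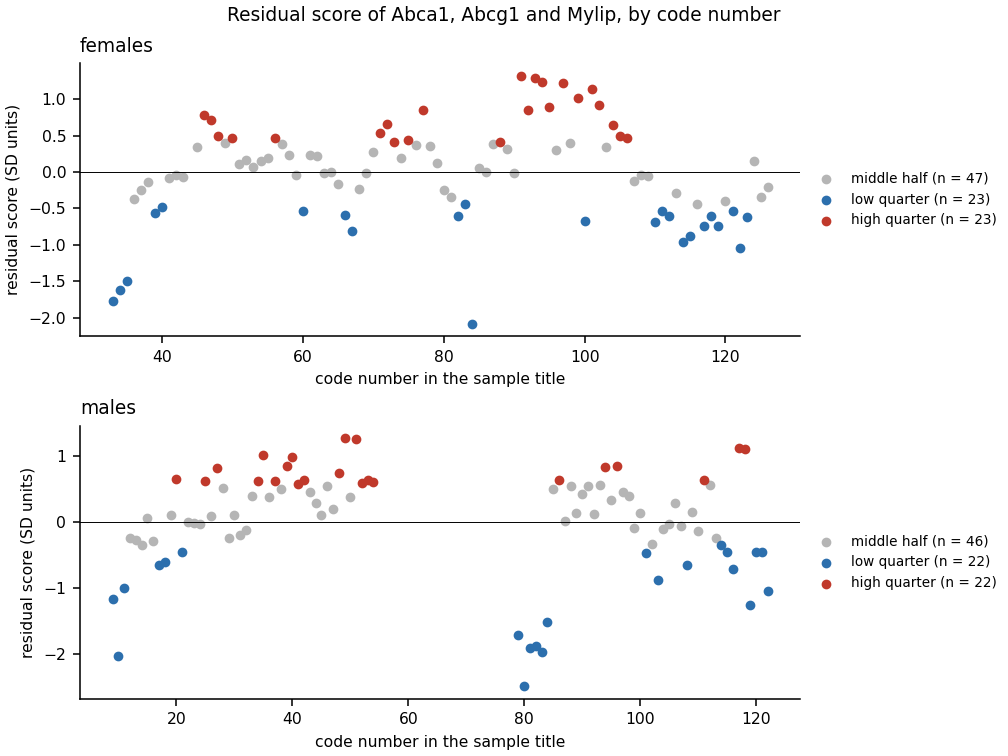
Residual score of Abca1, Abcg1 and Mylip (SD units) against the code number in the sample title, for 93 females and 90 males, 1 point per array. Red points are the high group, blue points the low group and grey points the remaining arrays; the 6 males numbered 79 to 84 sit together between -2.49 and -1.52.

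The score genes themselves chose the cultures, so their values are a description. Of the residuals, the last females inside the groups stood at 0.41 and -0.44 and the first outside at 0.40 and -0.43. The corresponding male values were 0.58 and -0.35 inside and 0.57 and -0.35 outside, so the cultures at the edges hardly differed. Abca1 signals on the probe set of the score ran from 11914 over a median of 15098 to 18335 in the female high group, and from 5195 over 12835 to 17326 in the low group. In males they ran from 12351 over 14782 to 18233 and from 5911 over 10630 to 14282. The groups overlapped in both sexes.

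Mylip was the gene that set the groups farthest apart. Its signal ran from 3267 over 5259 to 7101 in the female high and from 1087 over 2016 to 4536 in the female low group, and from 3595 over 5030 to 6602 and from 881 over 2039 to 4361 in males. Abcg1 ran from 2629 over 3427 to 4887 and from 909 over 2256 to 4131 in females, and from 3048 over 4226 to 5177 and from 1322 over 2521 to 4047 in males. The other probe sets of the genes, which the score did not use but which read the same transcripts, went the same way: Abca1 medians on a second probe set were 3286 and 2081 in females and 5095 and 3291 in males, and Abcg1 medians 591 and 303 in females and 372 and 264 in males.

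The 3 genes did not form a single axis. Abcg1 and Mylip had a Spearman correlation of 0.59 over 93 females and 0.59 over 90 males. Abca1 and Mylip had 0.18 in females and 0.40 in males, and Abca1 and Abcg1 had -0.19 in females and 0.11 in males. These arrays share the order of the code number, and the values are given as a description.

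Over all probe sets, the groups were compared with limma on log2(signal + 1) with the rank of the code number as a covariate, and a probe set was called at a Benjamini-Hochberg adjusted p under 0.05 over all probe sets tested. Without the 6 probe sets of the score genes, 528 of 19824 (2.66%) were higher in the high group of females and 556 (2.8%) lower. In males 1785 (9%) were higher and 1931 (9.74%) lower. By the brightest probe set of each of 10125 genes, 3.07% were called higher and 2.35% lower in females, and 9.56% and 9.65% in males; these are the shares against which the counts of genes below are read. The split of calls turns on the scaling: with every array rescaled to 1 median, the median difference of all probe sets moved to 0.17 in females and 0.08 in males, and the calls became 6181 higher and 206 lower in females and 4212 and 661 in males. Small differences below are relative to the authors' scaling for that reason.

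Sterol synthesis, the arm that SREBP2 drives, had 1 gene called lower in the female high group and 1 in each direction in males. In females 15 of 17 measured genes had a lower fitted level, with a median log2 difference of -0.19 beside -0.02 for all genes, but 1 gene passed the test, Idi1, and 0 were called higher. Between neighbours the female median was near 0: within 7 blocks it was -0.03, with 9 of 17 negative, and within blocks of 12 it was 0.04, with 5 of 17 negative, and 0 were called in either. In males 6 of 17 had a lower fitted level, the median was 0.11, and 1 gene was called higher (Pmvk) and 1 lower (Ebp). Within blocks the male median was 0.11 and 0.06, Ebp was called lower in both kinds of block, at -0.20 and -0.23, and Pmvk higher within blocks of 12 alone, at 0.23. No sterol gene differed between the sexes in the test of the difference itself, in which 2.73% of all probe sets were called.

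Idi1, the isopentenyl diphosphate isomerase, ran from 299 over a median of 498 to 2569 in the female high group and from 376 over 823 to 2777 in the low group. The ranges overlapped almost whole, and 19 of 23 low arrays were above the median of the high ones. The log2 difference was -0.64 ± 0.20 (SE, adjusted p = 0.0441), which is a signal 1.56 times higher in the low group. With the array median and the 3 prime to 5 prime ratios as covariates it was -0.52 and did not pass (adjusted p = 0.0934). In males it was -0.10 ± 0.21 (adjusted p = 0.775), with medians of 1571 in the high and 983 in the low group, the opposite order to the fitted one. Sqle, the squalene epoxidase at the entry to the sterol ring, ran from 239 over 404 to 2428 in the female high group and from 229 over 819 to 2792 in the low group, with 20 of 23 low arrays above the high median. Its difference of -0.73 ± 0.24 did not pass (adjusted p = 0.0587), and in males it was -0.15 ± 0.24 (adjusted p = 0.721).

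Of the other genes of the path in females, Cyp51, the sterol demethylase, had -0.55, Msmo1 -0.41, Fdft1 (squalene synthase) -0.40, Fdps -0.29 and Hmgcs1 (the HMG-CoA synthase of the window above) -0.28, and none passed. Pmvk at 0.07 and Mvd at 0.06 were on the positive side. In males the differences ran from Ebp at -0.20 ± 0.07 (adjusted p = 0.0444) to Mvd at 0.38, and Pmvk, the phosphomevalonate kinase, had 0.28 ± 0.08 (adjusted p = 0.00961). Ebp, the sterol isomerase, had the same fitted value, -0.20, in females, where it did not pass (adjusted p = 0.0793). Neither male call passed without the 6 males numbered 79 to 84, where Pmvk had 0.21 (adjusted p = 0.0711), Ebp -0.08 (adjusted p = 0.452) and the list a median of -0.02 with 0 called, while without the females numbered 33 to 35 Sqle passed in females, at -0.76 (adjusted p = 0.0455).

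**Figure D2:**
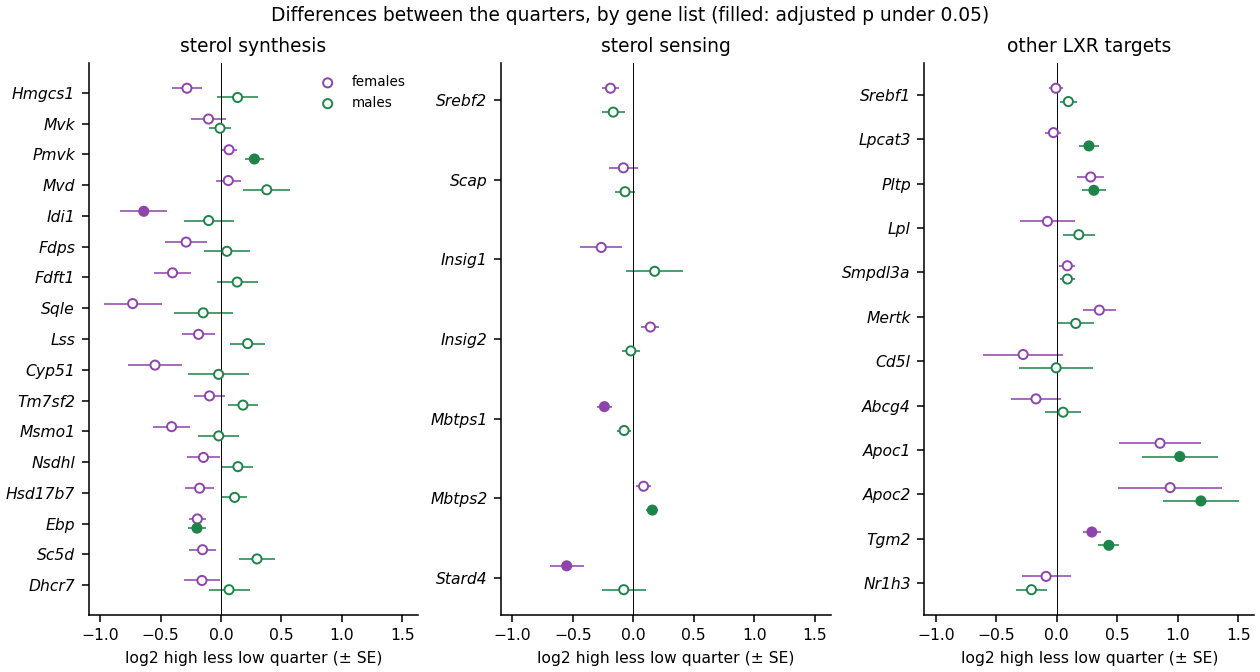
Log2 difference, high less low group, of each gene of 3 lists (points; bars, standard error), females in purple and males in green, filled where the adjusted p was under 0.05. Most female points of sterol synthesis lie left of 0, from -0.73 for Sqle to 0.07 for Pmvk, while the male points lie on both sides.

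The sterol genes that sense and carry cholesterol gave a like picture. Of 7 measured, 2 were lower in the female high group, where 2.35% of all genes were. Stard4, a carrier of cholesterol between membranes and itself a target of SREBP2, had medians of 761 and 1036 and a difference of -0.55 ± 0.14 (adjusted p = 0.0154). Mbtps1, the protease that makes the first cut of SREBP, had -0.24 ± 0.06 (adjusted p = 0.0173). In males 1 of 7 was called, Mbtps2, which makes the final cut, at 0.16 ± 0.05 (adjusted p = 0.0187), and Stard4 was at -0.08 ± 0.18. Insig1, which retains SREBP in the endoplasmic reticulum, had -0.26 in females and 0.18 in males, neither past the threshold. The female values did not hold within short stretches: within blocks of 12 arrays Stard4 had 0.01 and within 7 blocks of equal size -0.06, and Idi1 had -0.06 and -0.15.

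The level of sterol synthesis moved far more with the code number than with the efflux score. The mean log2(signal + 1) of the 17 genes was 10.27 ± 0.27 (SD, n = 23) in females with code numbers up to 56 and 9.17 ± 0.25 (n = 70) above, a difference of 1.09. In males it was 10.57 ± 0.21 (n = 43) up to 51 and 9.29 ± 0.34 (n = 47) above, a difference of 1.28. The lowest female up to 56 had 9.72 and the highest above had 9.67, so the sides did not overlap, nor did they in males, where the lowest up to 51 had 10.15 and the highest above 9.95. The places of the step were chosen by looking at this level, so that the gap is a description. The mean level of 13 fatty acid synthesis genes stepped the same way, by 0.80 in females and 0.98 in males. The step and whatever changed with the code number there cannot be told apart.

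**Figure D3:**
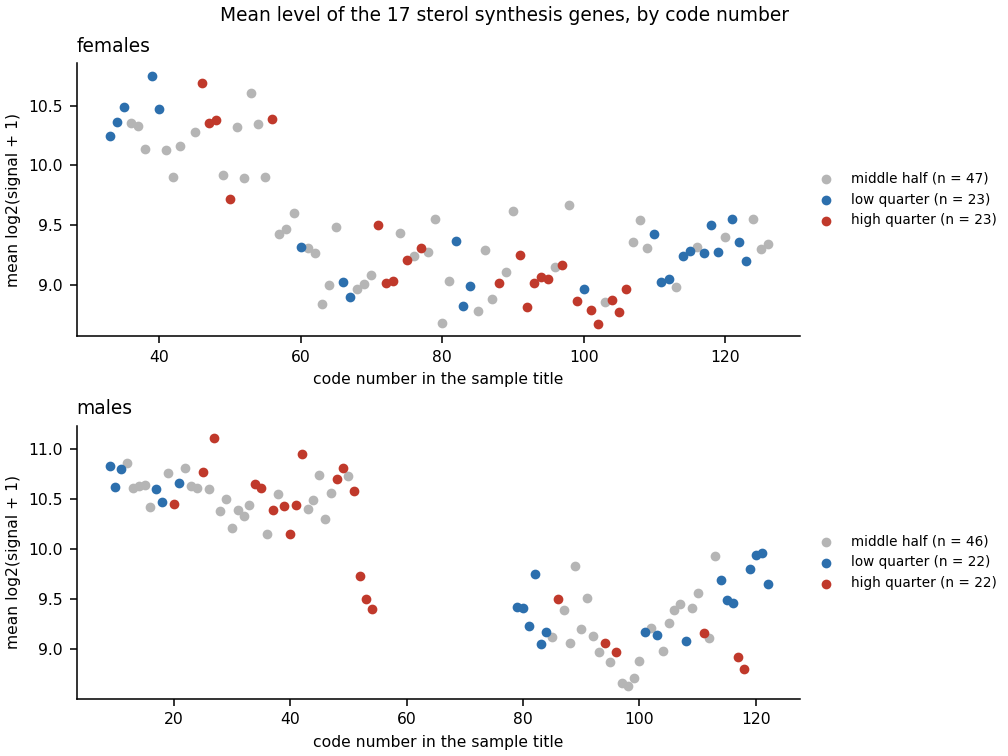
Mean log2(signal + 1) of 17 sterol synthesis genes against the code number, 1 point per array, coloured by group of the efflux score (red, high; blue, low; grey, the rest). The level falls by 1.09 in females after 56 and by 1.28 in males after 51, and high and low arrays lie on both sides of each step.

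The groups were spread unequally over the step. Of the female high group 5 arrays and of the low group 5 lay up to 56, with 18 of each above, but 13 male high arrays and 6 low ones lay up to 51, with 9 and 16 above. On each side the high group had the lower mean sterol level: the difference was -0.16 up to the step and -0.18 above it in females, and -0.04 and -0.23 in males, where the fit without the step had put the median above 0. For the fatty acid genes the order was opposite, with the high group above the low one by 0.20 and 0.27 in females and by 0.12 and 0.24 in males. These 8 differences are a description.

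With the side of the step added to the fit, 0 of 17 sterol genes were higher and 3 lower in females, where 3.44% of probe sets were called higher and 3.39% lower, and 0 were higher and 2 lower (Sqle and Ebp) in males, where 7.43% and 8.83% were called. The male median turned from 0.11 to -0.16, with 14 of 17 genes on the negative side, and the female median was -0.11 with 15 of 17. Sqle was then called in both sexes, with -0.54 ± 0.13 in females (adjusted p = 0.00944) and -0.55 ± 0.18 in males (adjusted p = 0.0285), while Idi1 had -0.50 ± 0.13 in females (adjusted p = 0.0185) and -0.42 ± 0.16 in males (adjusted p = 0.0620). Fdft1 was called in females at -0.28 ± 0.09 (adjusted p = 0.0407). This fit was made after the step had been seen, and within short blocks Sqle did not pass: it had -0.18 and -0.08 within 7 blocks and -0.00088 and -0.25 within blocks of 12 in females and males.

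The sterol genes differed with the score gene that ordered the arrays. With groups from Abca1 alone, 14 of 17 sterol genes were lower and 0 higher in the female high group, where 15.5% of probe sets were lower and 14.9% higher. The median was -0.56, and all 17 fitted values were negative. Sqle fell by 1.25 ± 0.19 on the log2 scale (adjusted p = 2.96e-06), Cyp51 by 0.97 ± 0.19 and Idi1 by 0.90 ± 0.17, and Fdps, Dhcr7, Fdft1 and Lss by 0.88, 0.74, 0.69 and 0.68. In males 1 of 17 was higher (Pmvk) and 0 lower, with a median of 0.05, where 9.64% and 12.6% of probe sets were called. In the test of the difference between the sexes 8 of the 17 were called, beside 4.39% of probe sets: Hmgcs1, Idi1, Fdps, Fdft1, Sqle, Lss, Hsd17b7 and Sc5d.

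The female sterol values by Abca1 shrank or turned between neighbours. With 7 blocks of the code number as a factor 0 of 17 were called in females, where 0.0706% of probe sets were called higher and 0.131% lower. The median turned to 0.23, and 1 of the 17 fitted values was negative. With the 3 highest and 3 lowest arrays of each of the 7 blocks 0 of 17 were called. The median was -0.09, with 13 of 17 values negative, and 8.89% of probe sets were still called higher and 8.69% lower. Within blocks of 12 arrays 1 of 17, Dhcr7, was lower, where 7.05% of probe sets were called higher and 5.94% lower. The median was -0.18, with 15 of 17 values negative. In males the fit with 7 blocks as a factor gave a median of 0.24, with 1 of 17 values negative. There 2 were called higher and 0 lower, where 11.9% and 9.61% of genes were called. Within 7 blocks and within blocks of 12 the male medians were -0.03 and -0.04, with 10 and 11 of 17 values negative. In each 1 of 17 was lower, where 6.35% and 11% of genes were. The difference between the sexes was not tested with blocks.

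Few sterol genes were called with groups from Abcg1 or from Mylip alone. By Abcg1 3 of 17 fitted values were negative in females and 1 of 17 in males. Within 7 blocks 8 and 3 were negative, and within blocks of 12 2 and 8. Within blocks of 12, 2 were called higher by Abcg1 in females, where 11.8% of genes were. By Mylip 12 of 17 were negative in females and 7 in males. With groups from Abcg1 alone 0 of 17 were called in females (median 0.15; 5.92% of probe sets higher and 7.3% lower) and 1, Ebp, was lower in males (median 0.21; 2.9% and 2.97%), and 0.373% of probe sets differed between the sexes. With Mylip alone 1, again Ebp, was lower in females (median -0.04; 10.9% and 12.9%) and 0 were called in males (median 0.05; 7.83% and 8.16%), and 8.35% differed between the sexes; 0 sterol genes did with either score gene.

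**Figure D4:**
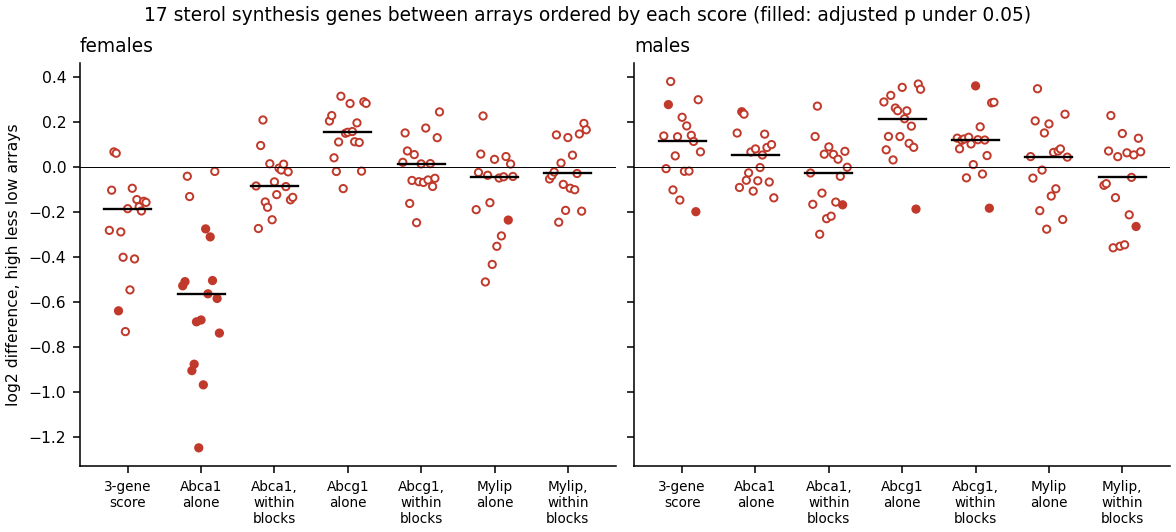
Log2 difference of each of 17 sterol synthesis genes between the highest and lowest arrays by the 3-gene score, by 1 score gene alone, and by that gene within 7 blocks of the code number; filled points have an adjusted p under 0.05 and bars are medians. The female values for Abca1 alone run from -1.25 to -0.02 with a median of -0.56, and within blocks the median is -0.09.

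Fatty acid synthesis, the arm that LXR and SREBP1 drive, had a positive median difference in both sexes. In females 2 of 13 measured genes were higher and 0 lower, with a median of 0.16, beside 3.07% of all genes called higher. In males 5 were higher and 0 lower, with a median of 0.20, beside 9.56%. With the side of the step in the fit, 4 were higher and 0 lower in females, with a median of 0.22. In males 3 were then higher and 1 lower, with a median of 0.08 and 5 of 13 values negative. Of all genes, that fit called 3.95% higher and 2.95% lower in females, and 8.18% and 8.67% in males. Scd2, a stearoyl-CoA desaturase, ran from 3861 over 6973 to 11530 in the female high group and from 1898 over 4516 to 10584 in the low group. In males it ran from 4241 over 9924 to 15276 and from 1145 over 5091 to 14270. The groups overlapped, and 21 of 23 female and 20 of 22 male high arrays were above the median of the low ones. The difference was 0.62 ± 0.15 in females (adjusted p = 0.0116) and 0.82 ± 0.19 in males (adjusted p = 0.00192), or 1.54 and 1.77 times.

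Scd1, the desaturase that is a textbook target of LXR, had medians of 377 and 205 in females and of 812 and 204 in males. Its difference was 1.06 ± 0.34 in females (adjusted p = 0.0555) and 1.57 ± 0.38 in males (adjusted p = 0.0027). Mid1ip1, a partner of acetyl-CoA carboxylase, was called in both sexes with 0.33 ± 0.08 and 0.29 ± 0.08, and Acss2, which makes acetyl-CoA from acetate, had 0.38 ± 0.13 in females (adjusted p = 0.062) and 0.81 ± 0.16 in males (adjusted p = 0.000277). Elovl5, a fatty acid elongase, had 0.15 and 0.20, called in males. Fasn, the fatty acid synthase, had 0.02 ± 0.16 and 0.36 ± 0.22 and was called in neither sex, and it had the same 15 promoter letters as Abca1. Srebf1, which encodes SREBP1, had -0.01 ± 0.06 in females and 0.10 ± 0.07 in males (adjusted p = 0.352). Within 7 blocks Scd2 kept 0.54 (adjusted p = 0.0534) in females and 0.75 (adjusted p = 0.00567) in males, and within blocks of 12 it had 0.74 and 0.64, both called. Of the 13 genes, 0 were called in females and 3 in males within 7 blocks, and 4 and 5 within blocks of 12, all higher. Mid1ip1 was not called in females within 7 blocks (0.20, adjusted p = 0.0751) and was in males (0.26, adjusted p = 0.0277), and within blocks of 12 it was called in both, at 0.23 and 0.21. Without the females numbered 33 to 35 the female difference of Scd2 was 0.50 (adjusted p = 0.0529).

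For this arm too the score gene mattered. With groups from Mylip alone 8 of 13 fatty acid genes were higher in females, with Scd2 at 0.80. Within 7 blocks 4 of 13 were higher (Scd2, Elovl5, Acss2 and Mid1ip1) and 0 lower, where 4.08% of probe sets were higher and 3.35% lower, and within blocks of 12 1 was, Scd2 at 0.65, where 0.832% were higher and 0.61% lower. With groups from Abca1 alone 6 of 13 were lower in females, Fasn among them with -0.69 ± 0.15 (adjusted p = 0.000299), where 15.5% of probe sets were lower, and 0 of 13 within 7 blocks. In males 4 of 13 were higher and 0 lower, with a median of 0.14, where 9.64% of probe sets were higher. Female cultures with high Abca1 had low sterol and low fatty acid signals before neighbours were compared, while those with high Mylip had high fatty acid signals.

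Among 12 other measured LXR targets, the high group had 1 gene higher in females, 5 in males and 0 lower. Of all genes 3.07% were called higher in females and 9.56% in males. Tgm2, a transglutaminase, was called in both, with medians of 7666 and 6217 in females and 6814 and 5097 in males and differences of 0.29 ± 0.08 (adjusted p = 0.0206) and 0.43 ± 0.09 (adjusted p = 0.000448). The Apoc1 and Apoc2 genes of the Apoe cluster, which encode small apolipoproteins, had 0.85 ± 0.34 and 0.94 ± 0.43 in females, where neither passed, and 1.02 ± 0.31 and 1.19 ± 0.32 in males, where both did. Male Apoc2 had a median of 2676 and a highest value of 11564 in the high group and of 1730 and 4553 in the low group, with 7 of 22 high arrays above every low one. Lpcat3, which loads phospholipids with polyunsaturated fatty acid, had 0.27 ± 0.08 in males (adjusted p = 0.0232) and -0.03 ± 0.07 in females, and Pltp, a phospholipid transfer protein, had 0.31 ± 0.10 in males (adjusted p = 0.0277) and 0.28 ± 0.11 in females (adjusted p = 0.119). Nr1h3, which encodes LXR alpha, had -0.09 in females and -0.21 in males and passed in neither. Within 7 blocks Apoc2 was called in males, at 0.76 (adjusted p = 0.0353), and no other of the 12 in either sex. Without the males numbered 79 to 84 Lpcat3 had 0.21 (adjusted p = 0.0765) and Pltp 0.19 (adjusted p = 0.118).

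Although the mice are apoE-deficient, the Apoe probe set read signals of up to 1561 on the 183 arrays. In males it had medians of 555 in the high and 320 in the low group and a difference of 0.85 ± 0.17 (adjusted p = 0.000565), and in females 639 and 637 and 0.26 ± 0.21 (adjusted p = 0.51). The difference between the sexes did not pass (0.59 ± 0.28, adjusted p = 0.264), and without the males numbered 79 to 84 the male difference was 0.32 (adjusted p = 0.142). Where this probe set lies relative to the disrupted part of the gene is not given in the sources used here, and a signal does not show protein.

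In the comparison of the groups, the calls among genes of cholesterol storage and uptake were all on the higher side. The female comparison called 1 of 13 cholesterol handling genes and 2 of 8 scavenger receptors, beside 3.07% of all genes called higher. The male comparison called 3 of 13 and 1 of 8, beside 9.56%. Lipa, the lysosomal acid lipase that frees cholesterol from its esters, was the one called in both sexes of 13 genes of cholesterol handling, with 0.27 ± 0.07 (adjusted p = 0.013) and 0.26 ± 0.08 (adjusted p = 0.0141). Within blocks Lipa was called in neither sex, with 0.14 and 0.17 by 7 blocks and 0.21 and 0.20 by 12 arrays, and by 7 blocks 0 of the 13 were called. In males Cyp27a1, which makes an oxysterol that activates LXR, had 0.43 ± 0.16 (adjusted p = 0.0478) and Nceh1, a cholesterol ester hydrolase, 0.33 ± 0.12 (adjusted p = 0.0492), against -0.01 and -0.03 in females; without the males numbered 79 to 84 Cyp27a1 had 0.15 (adjusted p = 0.429). Of 8 scavenger receptors Cd36, which takes up oxidised lipoprotein, had 0.45 ± 0.12 in males (adjusted p = 0.00616) and 0.37 ± 0.14 in females (adjusted p = 0.114). Marco had 0.43 ± 0.10 in females (adjusted p = 0.00762) and -0.10 ± 0.11 in males, and its female value was 0.08 and 0.16 within the blocks and was not called. Male Cd36 was called within 7 blocks, at 0.43, and not within blocks of 12, at 0.20. Within 7 blocks 1 of the 8 receptors was called lower in males, where 3.81% of genes were. Stab1, of the same list, had -0.52 in females and -0.37 in males and passed in neither sex. It gained a call under 6 other settings in females and 7 in males. Msr1, the class A receptor, had 0.38 ± 0.11 in females (adjusted p = 0.0265) and -0.02 ± 0.17 in males, where it turned to 0.45 (adjusted p = 0.0068) without the males numbered 79 to 84. Of 12 lysosomal genes 1 was higher in females, Ctsb at 0.16 ± 0.05, and 2 in males, Lamp2 at 0.45 ± 0.07 (adjusted p = 1.21e-05) and Ctsl at 0.13 ± 0.05.

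The 7 PPAR targets gave 1 call in females and 3 in males (Fabp4, Cd36 and Acadl), all higher. Beside these, 3.07% of all genes were called higher in females and 9.56% in males. Fabp4, the fatty acid binding protein of adipocytes and macrophages, ran from 2848 over 11088 to 22144 in the female high and from 3303 over 6620 to 10425 in the low group, so that 12 of 23 high arrays were above every low one. In males it ran from 4403 over 12207 to 21644 and from 2284 over 5905 to 9854, with 13 of 22 above every low one. The difference was 0.55 ± 0.16 (adjusted p = 0.0288) and 1.03 ± 0.15 (adjusted p = 9.59e-06). Within 7 blocks the male difference was 0.59 (adjusted p = 0.0295) and the female one 0.42 (adjusted p = 0.160), and within blocks of 12 both were called, at 0.69 in males and 0.74 in females. Ppard, which encodes a PPAR, had -0.03 and -0.17 and passed in neither sex, and of 5 measured nuclear receptors and partners the coactivator Ncoa1 was lower in both sexes, at -0.16 ± 0.04 (adjusted p = 0.0284) and -0.24 ± 0.04 (adjusted p = 7.42e-05). Ncoa1 was not called within blocks in either sex, with -0.06 and -0.12 by 7 blocks and -0.08 and -0.11 by 12 arrays.

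Lists that LXR is known to restrain, or that mark growth and stress, showed few calls. Of all genes 3.07% were called higher and 2.35% lower in females, and 9.56% and 9.65% in males. Of 17 inflammatory genes 1 was higher in females, Il1a at 1.03 ± 0.28 (adjusted p = 0.0207), and in males 1 was higher, the chemokine Ccl3 at 0.51 ± 0.18 (adjusted p = 0.0346), and 1 lower, Tnf, the gene of tumour necrosis factor. Tnf ran from 320.4 over 649 to 1321 in the male high group and from 648 over 1527 to 2837 in the low group, and 0 of 22 high arrays were above the median of the low ones. Its difference was -0.98 ± 0.17 in males (adjusted p = 5.57e-05) and -0.09 ± 0.23 in females (adjusted p = 0.852), and the difference between the sexes did not pass (adjusted p = 0.0770). Within blocks the male value was -0.54 (adjusted p = 0.0544) by 7 blocks and -0.70 (adjusted p = 0.00375) by 12 arrays. Without the males numbered 79 to 84 Ccl3 had 0.47 (adjusted p = 0.0572), and Il1a passed in males, at 0.98 (adjusted p = 0.0115). Of 16 interferon response genes 0 passed in either sex, although 13 had a positive fitted value in females and 2 in males. Of 17 genes of mitosis 0 passed, and all 17 were on the negative side in females, with a median of -0.40, while in males the median was 0.01. Of 13 genes of hypoxia and glycolysis 1 was called, Vegfa in males at 0.57 ± 0.18 (adjusted p = 0.0258), and of 13 genes of the unfolded protein response 1, Sdf2l1 in males at -0.27 ± 0.10 (adjusted p = 0.0455). Without the males numbered 79 to 84 these had 0.24 and -0.18 and did not pass, and Herpud1 and Psat1 were lower, at -0.58 and -0.64, as was Ndrg1 at -0.79. Of 14 macrophage markers Ctss was higher in females (0.17 ± 0.05), and in males Cd14 was higher (0.20 ± 0.05) and Aif1 lower (-0.68 ± 0.16, adjusted p = 0.00232). Of the stromal markers 1 was called, the matrix gene Dcn in males, with medians of 1730.3 and 595 and a difference of 1.45 ± 0.33 (adjusted p = 0.0017), against -0.15 ± 0.37 in females and 0.93 in males without those numbered 79 to 84 (adjusted p = 0.0302). Within 7 blocks Dcn had 0.95 in males and did not pass (adjusted p = 0.0840), within blocks of 12 it had 1.10 (adjusted p = 0.0116), and the median of the 11 stromal markers in males was -0.20 in the main comparison and -0.55 within 7 blocks; their part in the other results was not tested.

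Over all genes tested, list members included, 129 were called higher in the high group of both sexes, which is 41.5% of the 311 female and 13.3% of the 968 male calls, and 77 were lower in both, 32.4% of 238 and 7.88% of 977. Only 2 were called in opposite directions. By the smaller of the 2 differences, the 10 leading higher genes were Fxyd2, Spry3, Slco4a1, Slc7a11, Il1f9, Tal2, Gclm, Procr, Maoa and Clec4e. The 10 leading lower genes were Vcan, Ctla2a, Asb2, Clec4b1, Cytip, Rap1gap2, Sema7a, Dapp1, Cenpt and Tubb2a.

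Slco4a1, an organic anion transporter, ran from 2641 over 5692 to 15004 in the female high group and from 414 over 2889 to 10243 in the low group. In males it ran from 2462 over 6369.9 to 11010 and from 739 over 2600.3 to 7011. In both sexes 21 high arrays were above the median of the low ones, and the ranges overlapped. The difference was 1.06 ± 0.26 in females (adjusted p = 0.0127) and 1.24 ± 0.24 in males (adjusted p = 0.000267), or 2.09 and 2.35 times, and a second probe set was called the same way. Within 7 blocks it was 1.07 and 1.18 and within blocks of 12 1.22 and 0.89, all called. Without the females numbered 33 to 35 the female difference was 0.70 and did not pass (adjusted p = 0.119).

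Fxyd2, a subunit that tunes the sodium pump, led the genes higher in both sexes. It ran from 2708 over 7546 to 23033 and from 924 over 4026 to 14239 in females, and from 2232 over 5453 to 11662 and from 750.0 over 2734 to 4982 in males, where 14 of 22 high arrays were above every low one. The difference was 1.18 ± 0.21 (adjusted p = 0.000821) and 1.42 ± 0.20 (adjusted p = 2.53e-06). Both held within 7 blocks, at 1.02 and 1.17, and within blocks of 12 the male one held at 0.96 and the female one, 0.54, did not pass (adjusted p = 0.175).

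Several of the higher genes are known targets of NRF2, the factor of the oxidant response. Gclm, the modifier subunit of the enzyme that limits glutathione synthesis, had medians of 4657 and 2733 in females and 4411 and 2825 in males, where all 22 high arrays were above the low median. Its difference was 0.70 ± 0.14 (adjusted p = 0.00214) and 0.79 ± 0.12 (adjusted p = 1.45e-05). Slc7a11, which brings in cystine for glutathione, had 1.19 ± 0.35 (adjusted p = 0.0341) and 0.92 ± 0.21 (adjusted p = 0.00197), and 0.94 in females without those numbered 33 to 35 (adjusted p = 0.107). Srxn1, which repairs oxidised peroxiredoxins, ran from 1915 over 3272 to 6120.3 and from 1445 over 2269 to 3087 in females, and from 1696 over 3136 to 5453 and from 1839 over 2239.5 to 2937 in males, with 14 and 13 high arrays above every low one. Its difference was 0.60 ± 0.10 (adjusted p = 0.000212) and 0.39 ± 0.09 (adjusted p = 0.00263). Ptgr1, a prostaglandin reductase, had 0.67 ± 0.13 and 0.39 ± 0.11. Gclc, the catalytic partner of Gclm, parted from it: 0.57 ± 0.14 in females (adjusted p = 0.0151) and -0.14 ± 0.11 in males (adjusted p = 0.384). Srxn1, Gclc and Ptgr1 were picked after their values were seen, and no list of NRF2 targets was tested. Within blocks Srxn1 held in both sexes, and Gclm held in males but not in females, at 0.33 and 0.33 (adjusted p = 0.243 and 0.152).

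The other higher genes included Il1f9, the interleukin 36 gamma gene, with 1.39 ± 0.26 (adjusted p = 0.0013) and 0.77 ± 0.24 (adjusted p = 0.0189), Procr, the receptor for protein C, with 0.93 ± 0.24 and 0.66 ± 0.19 (in females 0.76, adjusted p = 0.0534, without those numbered 33 to 35), and Maoa, a monoamine oxidase, with 0.86 ± 0.12 (adjusted p = 1.89e-05) and 0.66 ± 0.13 (adjusted p = 0.000244). All 23 female high arrays had more Maoa signal than the median of the low ones. Within 7 blocks Maoa had 0.57 and 0.35 and passed in neither sex, and within blocks of 12 it had 0.69 and 0.52 and passed in both. Clec4e (Mincle) was called higher at 0.70 and 0.64, but in males its median was lower in the high group, 25443 against 30221, and 5 low arrays were below every high one.

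Of the genes that were lower, Vcan, which encodes the matrix proteoglycan versican and is known from monocytes, had medians of 204 and 1596 in females and of 89.5 and 1077 in males. Its ranges overlapped, from 16.6 to 4945 and from 30.6 to 8013 in females, and its difference was -1.21 ± 0.36 (adjusted p = 0.0377) and -1.25 ± 0.34 (adjusted p = 0.00742). Within 7 blocks Vcan passed in neither sex, at -0.95 and -0.60, and within blocks of 12 it passed in females, at -1.41, and not in males, at -0.67. Cytip, which binds cytohesin and limits adhesion by integrins, ran from 66.1 over 211 to 753 and from 76.3 over 535 to 1355 in females, and from 52.2 over 137 to 488 and from 70.1 over 317 to 887 in males. In each sex 19 low arrays were above the median of the high ones, and the difference was -0.95 ± 0.21 (adjusted p = 0.0049) and -0.68 ± 0.22 (adjusted p = 0.0212). Within 7 blocks the female difference was -0.95 and called, and the male one, -0.34, was not (adjusted p = 0.235). Dapp1, an adaptor of B cell and myeloid signalling, had -0.52 ± 0.10 and -0.55 ± 0.15, and -0.41 in males without those numbered 79 to 84 (adjusted p = 0.0715). Without the same runs Ctla2a had -0.70 in females (adjusted p = 0.156) and Tubb2a -0.19 in males (adjusted p = 0.385). Itgal, the integrin of LFA-1, which was picked after its values were seen, had -1.05 ± 0.20 in males (adjusted p = 0.000192), with all 22 low arrays above the high median, and -0.33 ± 0.21 in females (adjusted p = 0.344).

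**Figure D5:**
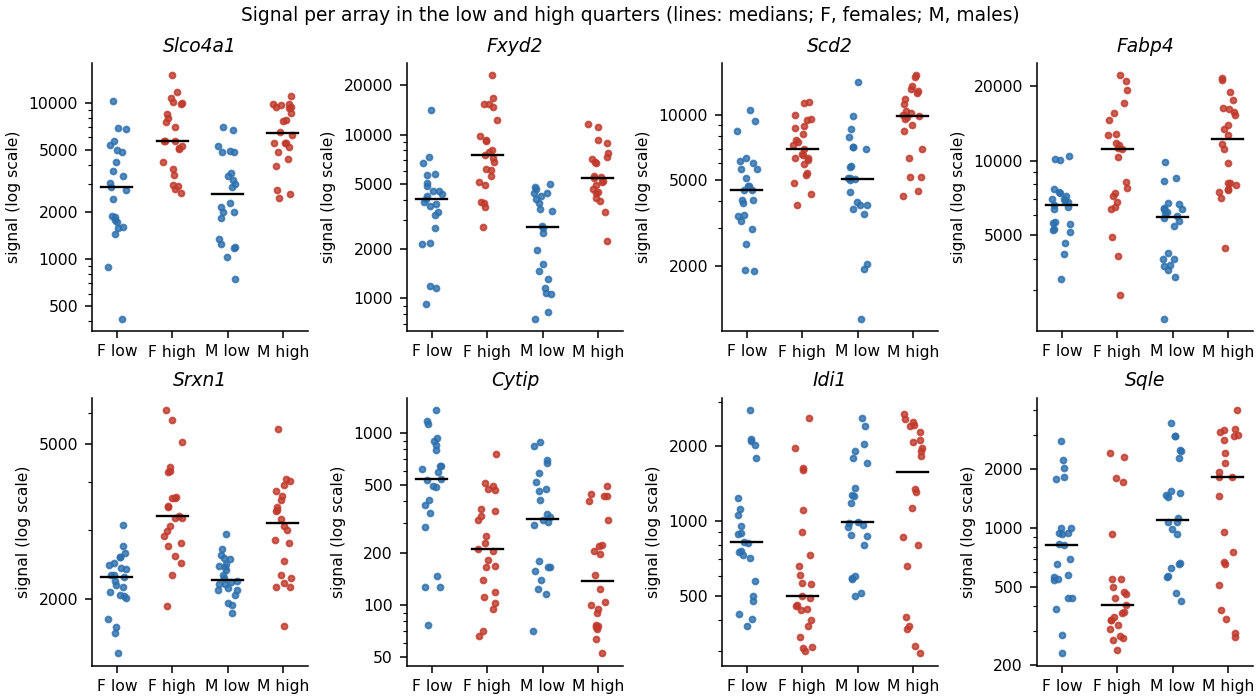
Signal (log axis) of 8 genes in each array of the low (blue) and high (red) groups, females (F, 23 and 23) and males (M, 22 and 22), with lines at the medians. Slco4a1, Fxyd2, Scd2, Fabp4 and Srxn1 sit higher and Cytip lower in the high groups of both sexes; Idi1 and Sqle have lower medians in the female and higher medians in the male high group.

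Few of the genes called in both sexes passed again between neighbours, where the contrast in score was smaller. Within 7 blocks 0.414% of probe sets were higher and 0.293% lower in females, and 4.56% and 3.72% in males. Within blocks of 12 these were 1.74% and 1.72%, and 8.72% and 7.88%. Of the 129 genes higher in both sexes, 13 were called in both sexes within 7 blocks, 21 within blocks of 12, and 9 within both kinds. The 9 were Fam104a, Procr, Alas1, Il1f9, Srxn1, Samd8, Slco4a1, Tal2 and Rbm33; Tal2, a helix-loop-helix factor, had 0.42 in females (adjusted p = 0.237) without those numbered 33 to 35. Alas1, which starts haem synthesis, had 0.28 in both sexes, and Samd8, a sphingomyelin synthase-related protein, 0.37 and 0.46. Of the 77 lower genes 3, 5 and 2 were called, and the 2 were Ier3ip1, at -0.23 and -0.20, and the dynein light chain Dynll1, at -0.30 and -0.42. Arrays of 1 block are still neighbours, and the blocks hold the same mice as the groups, so that these counts are no second sample.

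The array titles of the sexes have different prefixes, so sex and the series of arrays cannot be told apart. The Gapdh 3 prime to 5 prime ratio had medians of 0.93 and 0.94 in the female high and low groups. In males it had 0.78 and 0.80. The sexes differed by test at 541 probe sets (2.73%). Among the genes named, Lamp2, Marco, Gclc and Bmp2, a growth factor of the TGF-beta family picked after its values were seen, were among them. Bmp2 ran from 7.4 over 100.2 to 264 in the female high and from 77.9 over 217 to 573 in the low group, a difference of -1.37 ± 0.28 (adjusted p = 0.00255), and had 0.30 ± 0.40 in males; its female value was -0.57 and -0.66 within the blocks and was not called. Ltc4s, the leukotriene C4 synthase, also picked so, had 1.52 ± 0.38 in males (adjusted p = 0.00357), with medians of 384 and 127 and all 22 high arrays above the low median, and 0.34 ± 0.19 in females, but its difference between the sexes, 1.18 ± 0.42, did not pass (adjusted p = 0.112).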

How the data were processed

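RNA of 1 macrophage culture per mouse was hybridised to 1 array. The deposited values are signal intensities on a linear scale, which the authors made with MicroArray Suite 5.0 from perfect match and mismatch probes and normalized to the whole chip; they were used as deposited, with log2(signal + 1) computed from them. The number of arrays limits the precision. Probe sets with a signal of 100 or more on at least 61 of the 183 arrays were tested, sexes apart, with lmFit and eBayes of limma 3.58.1 in R 4.3.3, high less low group, with the rank of the code number as a covariate and Benjamini-Hochberg adjustment; the sexes were compared by an interaction in a joint fit. The fit was tested on simulated data with the male groups, drawn independently for each array apart from a drift along the code number rank. The correlation between neighbouring arrays was not simulated, so that test does not bear on the error rate under it. Other software was Python 3.11.15, numpy 2.4.6, pandas 2.3.3, scipy 1.17.1 and matplotlib 3.10.9. Of 35890 annotated probe sets 34958 have 1 symbol, and the brightest such probe set stood for a gene. The genotype table was not used here.

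The cultures, score genes and gene lists were chosen with earlier results of these data known. Named were genes of the sterol and LXR lists, up to 4 members of each other list with the smallest larger p of both sexes, and the 10 genes with the largest smaller difference in each direction among those called in both sexes. Fasn, Elovl5, Srxn1, Gclc, Ptgr1, Ltc4s, Bmp2, Itgal, Apoe, Nceh1, Cyp27a1, Tnf, Msr1, Vegfa, Sdf2l1, Dcn and the genes that held within blocks were chosen after their values were seen. So were the blocks, the step, the runs left out and the groups from 1 gene. Blocks of 12 arrays, with the rest in the last block, were used first; 7 blocks of equal size replaced them after results had been seen, and both are given.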

Additional observations from a re-analysis of the deposited data

Results flagged for a closer look

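In the test of the difference between the sexes (male difference less female difference, limma, Benjamini-Hochberg over all probe sets), 4 of the genes named passed. For Marco, a scavenger receptor, the male difference was lower by -0.53 ± 0.15 (adjusted p = 0.0295), from 0.43 in females and -0.10 in males. For Lamp2, a lysosomal membrane protein, it was higher by 0.29 ± 0.09 (adjusted p = 0.0418), from 0.16 and 0.45. For Gclc it was lower by -0.71 ± 0.18 (adjusted p = 0.0190), from 0.57 and -0.14. For Bmp2 it was higher by 1.67 ± 0.49 (adjusted p = 0.0438), from -1.37 and 0.30, and its male groups had medians of 146 and 159.5. Gclc and Bmp2 were chosen after their values were seen, and the cause of these differences was not tested. Sex and the series of arrays, which differ in title prefix, cannot be told apart.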

How the results depend on the processing

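Neighbours in code number shared like scores, the groups of each sex come from 1 series of arrays, and weak signals limit the fold differences; the cause of the changes below was not tested. No paired analysis was possible because the groups compared lie within a sex, where no code number is given to more than 1 array. Of 5548 values of 272 named results under other settings, 4692 kept their direction and side of the threshold, 525 lost and 313 gained a call, and 18 turned; sign changes of values that passed in neither setting were not counted.

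The calls in females (1084) became 478 without the code number in the fit, 2452 with its 3 equal parts as a factor, 12 by the Mann-Whitney test with Bonferroni adjustment that the methods use, 408 without the signal filter, 6387 after rescaling to 1 median, 2848 with the upper and lower 33.3% of the score and 2668 with the score as a continuous term. They became 2657, 5598 and 586 with the score without Abca1, Abcg1 and Mylip. With 7 blocks as a factor they were 97, within them 140, with blocks of 12 as a factor 48 higher and 66 lower (from 528 and 556), and within those 685 in all. The calls in males (3716) became 52 by the Mann-Whitney test, 6023 with the continuous score, 6765 with all males and 1641 within 7 blocks. Without females 33 to 35 there were 1213, and without males 79 to 84 3071. The calls of the difference between the sexes (541) became 262 without the code number, 1147 with its 3 parts, 333 with the array median and 3 prime to 5 prime ratios, 251 without the filter, 894 with 33.3% at each end, 2016 with the continuous score, and 813 and 229 with the score without Abcg1 and Mylip.

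With groups from Abca1 alone, the calls in females (6016) became 40 with 7 blocks as a factor, 3485 within them and 2575 within blocks of 12, and the sterol median turned from -0.56 to 0.23 with 7 blocks as a factor; the calls in males (4411) became 2281 within 7 blocks. With Abcg1 alone the female calls (2621) became 1347 with 7 blocks as a factor and 4103 within blocks of 12, and the male calls (1163) became 753 within blocks of 12. With Mylip alone the female calls (4718) became 1085 with 7 blocks as a factor, 1473 within them and 286 within blocks of 12, and the male calls (3170) 2041 and 1886 within the blocks.

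The female sterol median ran from -0.40 with the score without Abcg1, with 12 genes called lower, to 0.04 without Abca1, with 0 called, and the male one from -0.16 with the step to 0.32 in the Mann-Whitney setting. Rescaling to 1 median turned female Mbtps1 to 0.061, Lpcat3 to 0.17, Ncoa1 to 0.072 and Ppard to 0.26. Quantile normalization turned female Ctsb to -0.035 and Ctss to -0.025. With all males Ncoa1 turned to 0.012 and Ctsl to -0.029 in males. Within 7 blocks female Ctsb turned to -0.0072. Within blocks of 12 female Stard4 turned to 0.011, Asb2 to 0.25, Rap1gap2 to 0.027 and Sema7a to 0.032, and with blocks of 12 as a factor Asb2 turned to 0.33 and Sema7a to 0.041. With the score without Abcg1 female Fasn turned to -0.35 and Vegfa to 0.57, and male Msr1 turned to 0.45 without males 79 to 84.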
